A study of Homo sapiens with 3 samples.

Results

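The 10 genes described here encode steroid hormone receptors, related nuclear receptors and proteins of steroid synthesis or breakdown. They are ESR1, ESR2, PGR, NR3C1, NR3C2, NR2F2, NR5A1, HSD17B2, CYP19A1 and STAR, chosen by name from 19974 protein-coding genes on chromosomes 1 to 22 and X. BRG1, the ATPase of the SWI/SNF chromatin remodelling complex encoded by SMARCA4, was mapped by chromatin immunoprecipitation and sequencing (ChIP-seq) in wild-type 12Z cells. These are human epithelial cells of endometriotic origin, kept as an established line, and per the labels their chromatin was fixed with 1% formaldehyde and cut with micrococcal nuclease. There were 2 BRG1 libraries, replicates 1 and 2, and 1 input library, whose own values were not used here. The labels do not say whether the replicates were separate cultures. A peak was given to a gene when its midpoint lay in the gene body, or within 100 kb of it with that gene as the nearest protein-coding gene. This territory is called the gene's domain.

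Steroid receptors are transcription factors that bind DNA once their hormone has bound them, and SWI/SNF is a known partner of several of them. ESR1 and ESR2 encode the oestrogen receptors, PGR the progesterone receptor, NR3C1 the glucocorticoid receptor and NR3C2 the mineralocorticoid receptor. NR2F2 (COUP-TFII) and NR5A1 (SF-1) are related orphan receptors, the first known as a factor of endometrial stroma and the second as an activator of steroid synthesis genes. STAR moves cholesterol into mitochondria, CYP19A1 (aromatase) makes oestrogens, and HSD17B2 converts oestradiol to the weaker oestrone. In endometriosis, local oestrogen production and a weakened progesterone response are the classical hormonal features.

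Sequences are shown for the few stretches that the results below refer to, as no genome sequence under the peaks themselves was used. They come from RefSeq windows of GRCh38.p14, each written 5′ to 3′ on the minus strand on which both genes lie. The first lies upstream of an internal NR3C1 start and was mostly covered by a peak of replicate 1. The second lies upstream of the outermost NR3C1 start and was under no peak. The third is the only SF-1 site in a listed window of these genes, in CYP19A1, and was under no peak. Capitals mark motifs, a TATA motif (TATAAA), a TEAD motif (GGAATG) and a CCAAT box in the second, and the SF-1 site (CAAGGTCA) in the third.
NR3C1 internal start, chr5:143403687-143403936: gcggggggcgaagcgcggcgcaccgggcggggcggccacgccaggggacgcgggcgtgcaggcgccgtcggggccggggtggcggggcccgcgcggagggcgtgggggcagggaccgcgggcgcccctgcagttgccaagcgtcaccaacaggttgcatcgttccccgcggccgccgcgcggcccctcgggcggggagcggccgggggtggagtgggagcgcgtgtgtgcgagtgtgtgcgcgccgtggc
NR3C1 outermost start, chr5:143435513-143435762: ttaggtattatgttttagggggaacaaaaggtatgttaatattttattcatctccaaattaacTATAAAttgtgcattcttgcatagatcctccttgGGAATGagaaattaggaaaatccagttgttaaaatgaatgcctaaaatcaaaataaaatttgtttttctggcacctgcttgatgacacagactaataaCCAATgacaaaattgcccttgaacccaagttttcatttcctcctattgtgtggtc
CYP19A1 SF-1 site, chr15:51243143-51243172: tgagactctacCAAGGTCAgaaatgctgca

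The authors' overlap list, made from both libraries, held 6293 peaks on these chromosomes, called shared peaks here. Replicate 1 held 17323 peaks and replicate 2 held 10082. Enrichment was weak, with a median fold over background of 3.33 among shared peaks, 3.53 in replicate 1 and 3.71 in replicate 2. Folds and q-values of peaks are the authors' own and rank peaks within a list only, and peak positions are on GRCh38.p12. The depth of the libraries is unknown, as the lists give no counts. Peaks are not expression, so they cannot check the cell type. Of 8 epithelial markers 4 had a shared peak (KRT7, KRT8, KRT18 and PAX8), where 9.67% of all protein-coding genes did. Of 6 stromal or mesenchymal markers 4 had one (COL1A1, COL1A2, THY1 and DCN).

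Among the 10 genes, shared BRG1 peaks were found at NR3C1 and NR2F2. NR3C1 had 7 and NR2F2 had 1. The background was 9.67% of all protein-coding genes with at least 1 shared peak, and the median number was 0 for the 10 genes and for all genes. In the list of replicate 1, 3 of the 10 genes had a peak, where 20.2% of all genes did. In that of replicate 2, 2 of the 10 had a peak, where 11.5% of all genes did. Both replicate lists had a peak at NR3C1 and NR2F2, 2 of the 10, and at 10.5% of all genes. ESR1 had one in replicate 1 and none in replicate 2, as did 9.69% of all genes. ESR2, PGR, NR3C2, NR5A1, HSD17B2, CYP19A1 and STAR had no peak in any of the 3 lists.

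**Figure D1:**
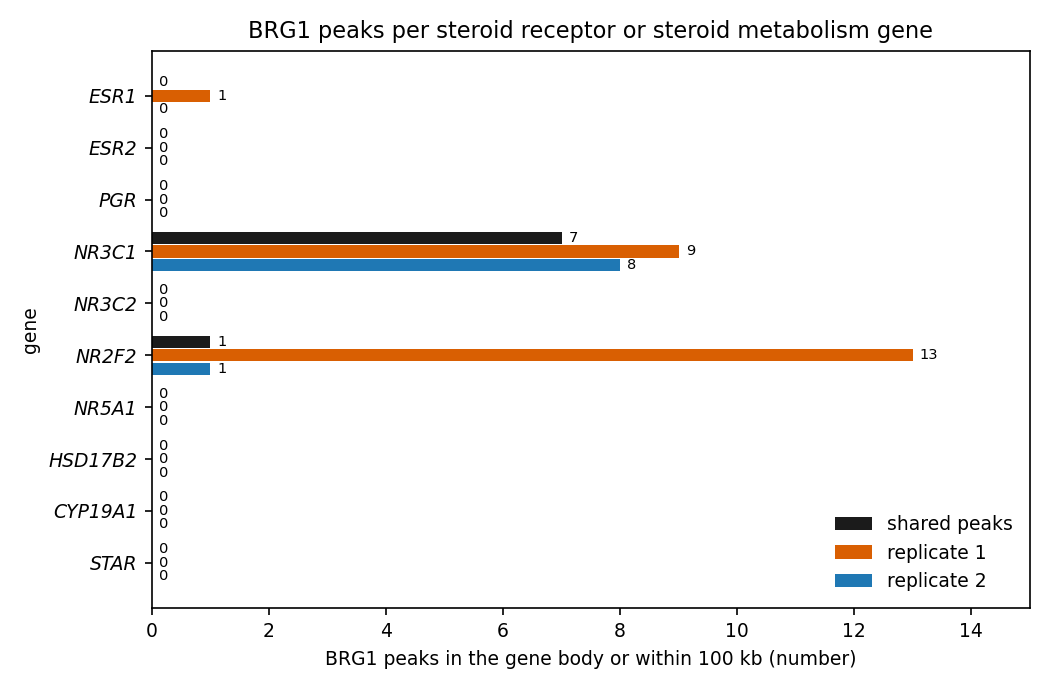
Number of BRG1 peaks (x axis) in the body or within 100 kb of each of the 10 genes (y axis), with 1 bar each for the shared peaks, replicate 1 and replicate 2. NR3C1 has 7, 9 and 8 peaks in the 3 lists, NR2F2 has 1, 13 and 1, ESR1 has 1 in replicate 1, and the other genes have 0.

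Of the 10 genes, 2 had a shared peak within 50 kb (8.93% of all genes), within 250 kb (10.3%), in the gene body (5.95%), by the nearest edge of the peak (9.70%), by the nearest gene of any kind (7.21%) and with a −log10 q of 2 or more (9.60%). NR3C1 alone had one when a replicate 1 peak had to be overlapped in replicate 2 by 1 bp (9.37%) or by 50% of both peaks (5.25%), and 0 of the 10 had one when −log10 q had to reach 5 in both replicates (0.125%).

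The count has to be read with the length of the domains. All genes were put into 5 classes of equal size by domain length, in which 0.976%, 2.93%, 7.16%, 12.6% and 24.7% of genes had a shared peak, from the shortest to the longest domains. Of the 10 genes, 6 were in the class of the longest domains (ESR1, PGR, NR3C1, NR3C2, NR2F2 and CYP19A1). ESR2 and HSD17B2 were in the class below it, NR5A1 in class 2 and STAR in class 1. The longest domains of the 10 held no shared peak. The ESR1 domain of 490.7 kb and the NR3C2 domain of 469.6 kb had 0 shared peaks, while that of NR3C1, 282 kb, had 7. Over the domains of the 10 genes together, 2.14 Mb, there were 3.73 shared peaks per Mb, against 1.55 over all gene domains. NR3C1 gave 7 of the 8 peaks.

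NR3C1, the glucocorticoid receptor gene on chromosome 5, was the gene with repeated peaks in both libraries. Its domain held 24.8 shared peaks per Mb. At least 7 shared peaks were found at 37 of 19974 genes (0.185%), and at 27 of the 1434 genes whose domain was at least as long (1.88%). In replicate 1, 7 of its 9 peaks were overlapped by a replicate 2 peak (77.8%, Wilson 95% interval 45.3 to 93.7%), where 33% of all replicate 1 peaks in gene domains were. In replicate 2, 7 of its 8 peaks were overlapped by a replicate 1 peak (87.5%, Wilson 95% interval 52.9 to 97.8%), where 74.1% of all such peaks were. The 7 overlapped peaks of each replicate lay under the 7 shared peaks for which the gene was picked out. These shares are thus not separate evidence, and as peaks near the same gene are not independent, they were not tested.

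The shared peak of highest fold at NR3C1 lay 71.8 kb upstream of the outermost start, at 143506982 to 143507617 on chromosome 5. Its fold was 4.73 in the overlap list, 5.01 in replicate 1 and 4.48 in replicate 2. By fold it stood at percentile 98.8 of shared peaks in gene domains, and its −log10 q was 7.69. It was the only peak at these 10 genes whose −log10 q reached 5 in a replicate list, with 5.07 in replicate 1, against 3.29 in replicate 2.

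Inside the gene body, 4 shared peaks lay between 58.3 and 124 kb from the outermost start. The peak at 143377131 to 143377369 had a fold of 4.62 in the overlap list, 4.77 in replicate 1 and 4.95 in replicate 2. It was narrow, with 239 bp, and stood at percentile 98.5 by fold. The peak at 143355578 to 143355978 had a fold of 4.36 in the overlap list, 4.63 in replicate 1 and 4.51 in replicate 2, and stood at percentile 96.4. Its neighbour less than 5 kb away lay at 143350865 to 143351301. This neighbour had folds of 3.11 in the overlap list, 3.53 in replicate 1 and 3.88 in replicate 2. By the highest fold under each shared peak, it was the weakest of the 7 in all 3 lists. The fourth, at 143311245 to 143311903, had a fold of 3.43 in the overlap list, 3.72 in replicate 1 and 3.94 in replicate 2.

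The remaining 2 shared peaks of NR3C1 lay past its 3′ end, toward ARHGAP26, which encodes a GTPase-activating protein. The peak at 143258508 to 143258955, 19.2 kb from the gene, had a fold of 3.84 in the overlap list, 4.35 in replicate 1 and 4.08 in replicate 2. The peak at 143262001 to 143263981, 14.9 kb from the gene, was the widest of the 7 with 1981 bp and had a fold of 3.29. It covered 1 peak of replicate 1 (fold 3.66) and 2 of replicate 2 (folds 4.10 and 3.52). The same 3 peaks had the highest folds in both replicates, the upstream peak and the 2 strongest in the body, though their order among themselves differed.

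**Figure D2:**
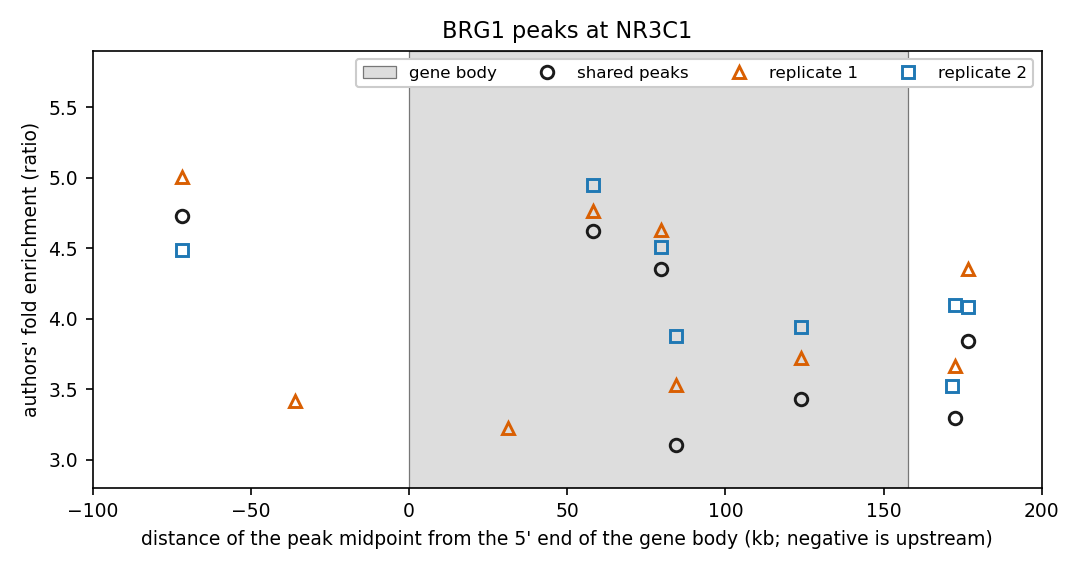
Fold enrichment given by the authors (y axis, ratio) of each peak at NR3C1 against the distance of its midpoint from the outermost start (x axis, kb, negative is upstream), with circles for shared peaks, triangles for replicate 1 and squares for replicate 2, and the gene body shaded. Each shared peak has a symbol of both replicates beside it, while the 2 triangles near -35.9 and 31.4 kb stand alone.

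None of the 7 shared peaks lay at an NR3C1 start. The closest was 26 kb from the nearest listed start. Replicate 1 alone had a peak at the internal starts, at 143403708 to 143404436, with a fold of 3.23 and a −log10 q of 1.67. It overlapped 3 of the 7 listed NR3C1 windows of 300 bases, by 229, 250 and 4 bases. The window of the first printed sequence, covered over 229 bases, was 82.3% G or C with 51 CpG dinucleotides. The window of the outermost start was 34.7% G or C with 0 CpG. The other peak found only in replicate 1, at 143471264 to 143471500, lay 35.9 kb upstream of the gene with a fold of 3.42.

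The peaks at NR3C1 were part of a longer run. Its neighbour ARHGAP26 had 10 shared peaks. Of these and the NR3C1 peaks, 4 lay in the 48.9 kb between the bodies of these genes. On the other side, between NR3C1 and HMHB1, a minor histocompatibility antigen gene, 6 shared peaks lay in 376.6 kb, of which 1 counted for NR3C1. The nearest of the others was 100.8 kb from NR3C1, just beyond the limit, with a fold of 3.50, and the upstream peak at 71.8 kb was the farthest inside it. With a limit of 250 kb NR3C1 had 12 shared peaks. HMHB1 itself had 0.

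Chromosome 5 had more genes with a shared peak, 16.7% of 904, than the other chromosomes that carry these 10 genes, where the share was between 1.99% and 13.6%. Within 5 Mb of NR3C1, outside its own domain, there were 3.14 shared peaks per Mb, and 11 of 146 other genes there (7.53%) had one. The stretches directly beside NR3C1 were denser than this average. There were 17.4 per Mb in the ARHGAP26 body and 15.9 between NR3C1 and HMHB1, against 25.4 in the NR3C1 body. Between ARHGAP26 and NR3C1 there were 81.8 per Mb. Both intervals between genes include peaks counted for NR3C1.

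**Figure D3:**
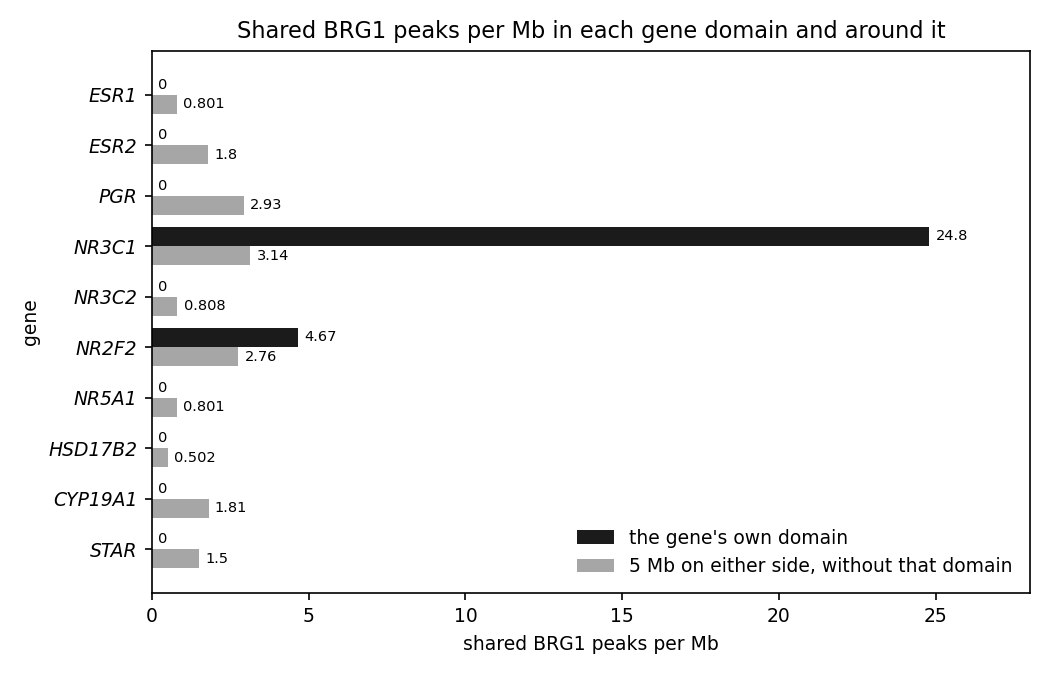
Shared BRG1 peaks per Mb (x axis) in the domain of each gene and, below it, in the 5 Mb on either side without that domain. NR3C1 has 24.8 per Mb in its domain and 3.14 around it, NR2F2 has 4.67 and 2.76, and the other genes have 0 in their domains and between 0.502 and 2.93 around them.

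NR2F2, on chromosome 15, differed between the replicates. Replicate 1 had 13 peaks in its domain and replicate 2 had 1. At least 13 replicate 1 peaks were found at 50 of 19974 genes (0.250%), and an excess of 10 or more over replicate 2 at 15 genes (0.0751%). None of the 13 overlapped a peak of replicate 2 (0%, Wilson 95% interval 0 to 22.8%). Of all replicate 1 peaks in gene domains 33% did, so most such peaks had no overlap. The interval treats the 13 as independent, though 6 lay in 1 run and 5 in another group, so it may be too narrow. Over all chromosomes, replicate 1 had 17323 peaks and replicate 2 had 10082, and the part of this difference in the count at NR2F2 was not tested.

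The shared peak of NR2F2, at 96327065 to 96328496, lay 1.73 kb inside the upstream end of the gene body, with a fold of 3.19 and a −log10 q of 2.64. By fold it stood at percentile 19.4 of shared peaks in gene domains. The replicate peaks under it did not touch. That of replicate 1, at 96327257 to 96327650, had a fold of 3.84, and that of replicate 2, at 96327764 to 96328468, had a fold of 3.67. They were 113 bases apart, so this shared peak rests on adjacent peaks and not on overlapping ones. It was the only gene-end peak (within 3 kb of an end of the body) among the 10 genes, where 2.00% of all genes had one. By the same limit NR2F2 alone had one in replicate 1, where 6.68% of all genes did, and in replicate 2, where 2.90% did. Within 10 kb it was again 1 of the 10, against 4.40% of all genes, and within 1 kb 0 of the 10, against 0.896%. The peak overlapped the antisense gene NR2F2-AS1 as well, and it lay 4.79 kb upstream of the nearer of the 2 listed NR2F2 starts.

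The other replicate 1 peaks fell into groups. Together with the peak just named, 5 lay within 7.84 kb around the upstream end of the gene, with folds of 3.12 to 3.84. A run of 6 peaks lay between 49.7 and 61 kb upstream, at 96264454 to 96276494, with folds of 3.37 to 3.77. Single peaks lay 91.7 kb upstream (fold 3.87) and 78.2 kb downstream (fold 3.64). Their −log10 q was low, from 1.41 to 2.45, and 5 of the 13 reached 2. Of the 13, 11 lay in the gene-poor stretches on both sides of NR2F2, whose nearest protein-coding genes MCTP2 and ARRDC4 are 1842.1 and 1620.4 kb away. These stretches are poor in protein-coding genes only. All the upstream peaks overlapped the antisense gene NR2F2-AS1. Most of the run of 6 also overlapped LOC124903584, another long non-coding RNA gene.

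**Figure D4:**
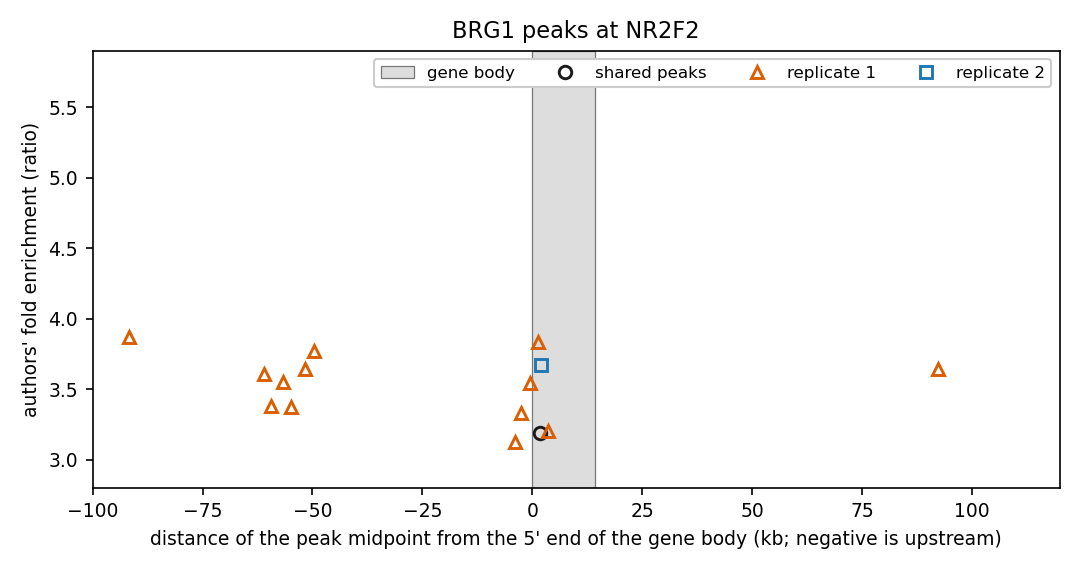
Fold enrichment given by the authors (y axis, ratio) of each peak at NR2F2 against the distance of its midpoint from the upstream end of the gene body (x axis, kb, negative is upstream), with a circle for the shared peak, triangles for replicate 1, a square for replicate 2 and the gene body shaded. Replicate 1 has a run of 6 peaks near 49.7 to 61 kb upstream where replicate 2 has none, and all folds are between 3.12 and 3.87.

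The oestrogen and progesterone receptor genes had no shared peak. ESR1 had 1 weak peak in replicate 1, at 152097325 to 152097518 on chromosome 6, 32.2 kb inside the 3′ end of its body. Its fold was 3.63 and its −log10 q 1.84, and it was found neither in replicate 2 nor in the overlap list. The nearest shared peak to ESR1 lay 210.4 kb away, at 151446085 to 151446463, and was closest to RMND1. ESR2 was 420.3 kb from the nearest shared peak, which was closest to SPTB, on chromosome 14, where 7.11% of genes had a shared peak. PGR was 216.9 kb from one with a fold of 3.71, at 101346311 to 101347077, that had no protein-coding gene within 100 kb. Around PGR, 12 of 36 genes within 5 Mb (33.3%) had a shared peak, while PGR had 0 in a domain of 218.0 kb. Over chromosome 11 the share was 8.46%.

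NR3C2, a close relative of NR3C1, had 0 peaks in each list, and the nearest shared peak was 364.2 kb away, closest to ARHGAP10. Of chromosome 4 genes, 8.83% had a shared peak. NR5A1 was 171.4 kb from a shared peak with a fold of 4.70, closest to the kinase gene NEK6, and 9.25% of chromosome 9 genes had a shared peak. Its neighbour NR6A1, another orphan receptor gene, had 1 shared peak.

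The steroid metabolism genes had no peak either. CYP19A1 was 296.8 kb from the nearest shared peak, which was closest to AP4E1, although 13.6% of chromosome 15 genes had a shared peak. None of its 7 listed windows lay under a peak of any list. STAR was 271.0 kb from a shared peak with a fold of 4.57, closest to RAB11FIP1. On chromosome 8 the share was 13.4%. HSD17B2 was the most isolated, 1465.3 kb from the nearest shared peak. Chromosome 16, on which it lies, had the lowest share of genes with a shared peak among the chromosomes of these 10 genes, 1.99%. Lists of this enrichment cannot show that BRG1 was absent from these genes.

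RefSeq windows, 250 bases before to 50 after a start, were available for 8 of the 10 genes, 35 windows in all. None was under a shared peak or a replicate 2 peak, and the 3 under a replicate 1 peak were those of NR3C1. Their median G and C content was 59% (31.7 to 82.3%), and that of all 35116 windows of the same length was 58.7%. Motifs were searched on both strands. The AP-1 motif TGANTCA was in 3 of the 35 windows and in 7.71% of all windows, and the TEAD motif GGAATG in 5 and in 14%. The receptor core AGGTCA was in 5 windows, of CYP19A1 and ESR2, and in 13.8% of all. Some windows of the same gene overlap, so the same site can be counted more than once, as for AGGTCA in ESR2. The SF-1 site CAAGGTCA, which contains that core, was in 1 window of CYP19A1, printed above, and in 1.28% of all. The TATA motif TATAAA was in 3 windows and in 11.5% of all, and CCAAT in 18 and in 34.6%. The palindromic oestrogen response element was in 0 of 35 and in 0.057% of all. The palindromic element shared by the glucocorticoid and progesterone receptors was in 0 of 35 and in 0.39% of all. These are matches of letters, not sites of binding.

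Other genes of steroid signalling were counted from lists of the remaining nuclear receptors, of steroid synthesis and metabolism, of receptor coregulators and chaperones, and of hormone-responsive genes. The median number of shared peaks per gene was 0 in each list and over all genes, where 9.67% had a shared peak. Of 41 other nuclear receptor genes, 6 (14.6%) had a shared peak. All 6 had one inside the gene body, as did 5.95% of all genes. The median domain of the 41 was 108.1 kb, against 56.5 kb for all genes. RORA, an orphan receptor with circadian roles, had 2, the stronger with a fold of 4.43, and the thyroid hormone receptor gene THRB had 2. The fatty acid receptor gene PPARD also had 2, and RARA (retinoic acid receptor), NR1D2 (REV-ERB beta) and NR6A1 had 1 each.

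Of 46 other steroid synthesis and metabolism genes, 3 (6.52%) had a shared peak, against 9.67% of all genes. Their median domain was 70.1 kb, against 56.5 kb for all genes. SULT2B1, a sterol sulphotransferase gene, had its peak at a gene end (fold 4.03). CYP1B1, whose enzyme hydroxylates oestradiol, and STARD4, a sterol transporter gene related to STAR, had 1 each, 70.8 and 71.6 kb from the gene. The cholesterol side-chain cleavage gene CYP11A1 and HSD17B1, which makes oestradiol, had 0.

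Of 28 coregulator and chaperone genes, 7 (25%) had a shared peak, against 9.67% of all genes. Their median domain was 150.7 kb, against 56.5 kb for all genes. NCOR1, a corepressor gene, had a shared peak within 3 kb of a gene end, whose midpoint fell to another gene, so it was not counted in the domain of NCOR1. NRIP1, another corepressor gene, had 1 with a fold of 4.09. FKBP5, a co-chaperone of the glucocorticoid receptor, had 1 in its body with a fold of 3.51. This gene is also in the list of hormone-responsive genes and counted there too. GATA6 had 2 and GATA2 had 1, with folds of up to 4.42 and 4.20, and both encode factors of hormone-responsive tissues. NCOA7 and PGRMC2 had 2 each.

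Of 34 hormone-responsive genes, 13 (38.2%) had a shared peak, against 9.67% of all genes. Of the 34, 6 had one at a gene end, as did 2.00% of all genes. Their median domain was 117.6 kb, against 56.5 kb for all genes. ARID5B, a gene of an ARID domain protein, had 7 shared peaks, and 1 of them, at 62045168 to 62050032 on chromosome 10, covered a listed start window in full. DUSP1, a phosphatase gene induced by glucocorticoids, had 5, of up to 3.84 fold. CEBPB had 2, and the cytokine gene LIF, HOXA11 and the metallothionein gene MT2A had 1 each, all with a gene-end peak. Away from gene ends, the growth factor gene IGF1 and STC1 had 2 each, with folds of up to 4.31 and 3.83. These lists were chosen with earlier results of the same data known, so their shares were not tested.

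**Figure D5:**
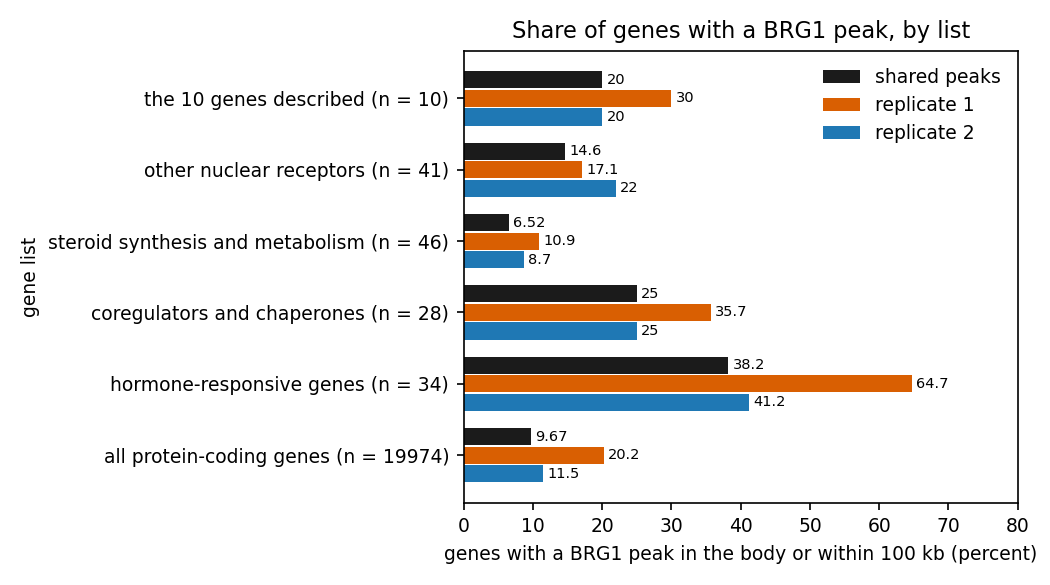
Share of genes (x axis, percent) with a BRG1 peak in the body or within 100 kb, for the 10 genes, the 4 lists and all protein-coding genes (y axis), with 1 bar each for the shared peaks, replicate 1 and replicate 2. For shared peaks the shares run from 6.52% of steroid synthesis and metabolism genes to 38.2% of hormone-responsive genes, against 9.67% of all genes.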

How the data were processed

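BRG1 ChIP-seq peaks of 12Z cells were used as deposited, in 3 broadPeak lists on GRCh38.p12. The submitters' processing notes name MACS2, a peak caller, Bowtie2 for alignment, and cutadapt, Trim Galore, bedtools, Picard and SAMtools, without versions or settings. The authors' deposited values for each peak are a fold enrichment (a ratio to background), a −log10 q-value and a score. The deposited score and −log10 p-value were not used. How the overlap list was made, and from pooled reads or not, is not stated in these sources, and the depth is unknown.

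Gene positions came from RefSeq for GRCh38.p14, whose patches leave chromosome positions as they are. Distances and domains rest on that table, and its gene coordinates are not printed. All 159 list entries matched. Python 3.11.15, numpy 2.4.6, pandas 2.3.3, scipy 1.17.1 and matplotlib 3.10.9 were used. Peak assignment was tested on simulated data and placed 200 of 200 simulated peaks in the right gene. Peaks of 2 lists overlapped when they shared 1 bp or more. Intervals are Wilson 95% intervals and do not include read sampling. No test was run, as there is 1 condition. The 10 genes and all lists were chosen with earlier results of these data known. Of each list, genes with a gene-end peak were named, then those with the most shared peaks, up to 8, and not every gene so chosen is reported here. CYP11A1 and HSD17B1 were named after their values were seen.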

Additional observations from a re-analysis of the deposited data

How the results depend on the processing

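No paired analysis was possible because there is 1 condition and no comparison between groups. Of the 10 genes, 2 had a shared peak in each setting of distance, peak edge and gene kind, and 0 where −log10 q had to reach 5 in both replicates, a setting that also left 0 genes in each of the 4 lists and 0.125% of all genes. NR3C1 alone (1 gene) remained where replicate 1 peaks had to be overlapped in replicate 2, by 1 bp or by 50% both ways. The 8 shared peaks of the 10 genes became 13 within 250 kb, 5 in gene bodies and 4 with 50% overlap. Without replicate 1 or without replicate 2 the sum was 9 to 23 and the genes with a peak 2 to 3. Over all genes the share of 9.67% became 8.93% within 50 kb, 5.95% in bodies, 7.21% by the nearest gene of any kind, 5.25% with 50% overlap, and 11.5% to 20.2% without a replicate. Counts of steroid metabolism genes (3) became 1 within 50 kb, in bodies, by the nearest gene of any kind and with 50% overlap, and 4 to 5 without a replicate. Hormone-responsive genes (13) became 4, 5 and 8 in bodies, by the nearest gene of any kind and with 50% overlap, and 14 to 22 without a replicate. With 50% overlap 0 other nuclear receptors remained, and without a replicate 7 to 9. Coregulators (7) became 5 in bodies, 6 by the nearest gene of any kind and 5 with 50% overlap, and 7 to 10 without a replicate. Gene-end genes among the 10 were 1, and 0 within 1 kb. Of replicate 1 peaks at the 10 genes 30.4% were found in replicate 2 (36.6% of all peaks). With −log10 q of 2 or more the share was 54.5% (50.5% of all). Among all replicate 1 peaks in gene domains, the closer background, these shares were 33% and 47.8%. Of replicate 2 peaks at the 10 genes 77.8% were found in replicate 1 (63.9% of all), and 44.4% with 50% overlap (32% of all). With −log10 q of 2 or more the share was 100.0%, 7 of 7 (73.2% of all). Among all replicate 2 peaks in gene domains these 3 shares were 74.1%, 31.6% and 84%. Peaks per Mb were 3.73 and, without gene-poor stretches, 4.12. Apart from stricter settings leaving fewer peaks, the cause was not tested.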
